A study of Homo sapiens with 10 samples.

Results

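Hepatocyte growth factor (HGF), its receptor and the proteins that activate it were examined as 8 genes out of 14232 named genes on the array: the ligand HGF, the receptors MET and MST1R, the proteases HGFAC and ST14, the protease inhibitors SPINT1 and SPINT2, and the adaptor GAB1. Each had exactly 1 probe set whose annotation gives that gene symbol alone, so no choice between probe sets was needed. The set was chosen by the log2 level of HGF, picked for its large difference between the same 10 arrays, so its values are given as a description with no test. The study measured RNA on Affymetrix exon arrays in SH-SY5Y, a human neuroblastoma cell line, stably transfected with SOD1(G93A), a mutant copper-zinc superoxide dismutase of familial amyotrophic lateral sclerosis, or with wild-type SOD1. There were 5 arrays of SOD1(G93A) cells (samples 3, 9, 12, 15 and 18) and 5 of wild-type SOD1 cells (samples 2, 8, 11, 14 and 17). Both lines were kept in medium with 10% serum and 400 µg/ml of the selection drug G418, and no untransfected cells were analysed here. The labels do not say whether each line was 1 clone or a pool, or whether a group's samples were grown apart. The p-values below thus cover the spread between these samples alone, perhaps only a technical one. The effect of the construct cannot be told apart from other differences between the lines.

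HGF is secreted, mostly by mesenchymal cells, as a single-chain precursor without signalling activity. Serine proteases cut it into the active heterodimer: HGFAC encodes HGF activator, and ST14 encodes the membrane protease matriptase. SPINT1 and SPINT2 encode Kunitz-type membrane inhibitors that block both enzymes. Cut HGF binds the receptor tyrosine kinase MET, which recruits the docking protein GAB1 and through it the PI3K and ERK pathways. MST1R is the related receptor for the ligand MST1, which is cut in the same way. MET signalling supports motility, survival and axon growth in several neuronal types.

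The deposited values are log2 intensities. Array medians lay between 6.26 and 6.34, and arrays correlated at 0.990 to 0.994 within groups and 0.986 to 0.990 between them. Differences were tested with limma, and one counted as called when its Benjamini-Hochberg adjusted p, taken over the whole table of 22011 probe sets, was at most 0.05. By this rule 7.46% of the probe sets passed. Of named genes 9.6% did, with 4.03% rising and 5.57% falling in SOD1(G93A) cells. All 8 measured of 12 noradrenergic neuroblastoma markers were above the level of silent genes defined below in all 10 arrays. PHOX2A, ISL1 and STMN2 were bright, while TH was the dimmest of the 8, at 5.46 to 5.75. By the same rule 7 of 11 measured fibroblast markers also passed in all 10 arrays, so it does not by itself establish the cell type.

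HGF was high in the SOD1(G93A) line and near the level of silent genes in the wild-type SOD1 line. Its log2 level was 8.14, 8.25, 8.54, 8.33 and 8.96 in SOD1(G93A) samples 3, 9, 12, 15 and 18. In wild-type SOD1 samples 2, 8, 11, 14 and 17 it was 2.87, 2.84, 2.76, 2.40 and 2.87. The groups did not overlap, and the lowest SOD1(G93A) array stood far above the highest wild-type one. The means were 8.44 ± 0.32 in SOD1(G93A) and 2.75 ± 0.20 in wild-type SOD1 arrays (SD, n = 5 each), a difference of 5.70 on the log2 scale. HGF thus lay above 76.7% to 85.6% of all probe sets in the SOD1(G93A) arrays and above 8.47% to 14.6% of them in the wild-type arrays. Log2 differences that reach into the dim range are compressed by the array's background, so no exact fold is given and the difference may be understated. The RNA came from whole cultures, so more HGF RNA per cell and more cells with HGF RNA cannot be told apart.

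Promoter sequence was at hand for 5 of the 8 genes, from RefSeq on GRCh38.p14, as 250 bases before to 50 after the gene start. Those of HGF and MET are shown because the ligand differed so widely while its receptor gene was near the level of silent genes in both lines. They run 5′ to 3′ on the gene's own strand, with CpG dinucleotides in capitals. HGF lies on the minus strand (chr7:81769998-81770297) and MET on the plus strand (chr7:116671946-116672245).
HGF promoter: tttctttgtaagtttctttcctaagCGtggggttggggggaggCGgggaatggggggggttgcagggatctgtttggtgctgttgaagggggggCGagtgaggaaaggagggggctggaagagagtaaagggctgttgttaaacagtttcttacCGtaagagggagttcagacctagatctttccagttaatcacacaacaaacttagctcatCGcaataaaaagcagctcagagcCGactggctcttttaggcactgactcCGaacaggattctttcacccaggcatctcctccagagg
MET promoter: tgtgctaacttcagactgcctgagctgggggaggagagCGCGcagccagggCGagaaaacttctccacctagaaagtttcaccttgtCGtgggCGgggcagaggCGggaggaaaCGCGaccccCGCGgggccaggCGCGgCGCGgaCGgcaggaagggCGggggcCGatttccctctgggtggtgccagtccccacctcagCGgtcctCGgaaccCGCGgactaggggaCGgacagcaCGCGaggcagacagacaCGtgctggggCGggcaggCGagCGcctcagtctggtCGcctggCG
The HGF window holds 7 CpG dinucleotides, more than 36.8% of the 35116 promoters in the table, and the MET window 30, more than 77.6% of them. The SP1 and SP3 motif GGGCGG, sought on both strands, was found 3 times in the MET window and 0 times in the HGF window, against at least 1 match in 45.0% of all promoters. The HGF window also held no AGGTCA (NR2F1 and NR2F2; 13.8% of promoters), no TTGGC (NFIX; 45.6%) and no TTGCNNAA (CEBPB and CEBPD; 10.5%), which says only that these letters are not in these 300 bases.

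None of the other 7 genes was called by limma, against 9.6% of all named genes. At an unadjusted p under 0.05 there was 1, SPINT1, where 21.7% of named genes passed. The same count of 0 was found when the variance was fitted with an intensity trend and when arrays were weighted by quality.

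The receptor MET was dim in every array. Its level was 2.76, 2.69, 2.71, 2.71 and 2.83 in SOD1(G93A) samples 3, 9, 12, 15 and 18, against 2.65, 2.69, 2.74, 2.65 and 2.66 in wild-type SOD1 samples 2, 8, 11, 14 and 17. The groups overlapped, and the difference of 0.06 (SE 0.05, 95% interval −0.04 to 0.17) did not pass (limma, adjusted p = 0.561). MST1R, the receptor for MST1, was 4.29, 4.02, 4.29, 4.22 and 4.26 in the SOD1(G93A) samples in the same order, against 4.27, 4.44, 4.34, 4.24 and 4.37 in the wild-type samples. These groups also overlapped, with SOD1(G93A) sample 9 the lowest, and the difference was −0.12 (SE 0.07, 95% interval −0.27 to 0.03, limma adjusted p = 0.408). MST1 itself had no probe set naming it alone and was not analysed here.

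Neither activating protease passed the test. HGFAC, whose product circulates mainly as a liver-made zymogen, read 5.60, 5.85, 5.70, 5.60 and 5.70 in the SOD1(G93A) samples, against 5.76, 5.54, 5.66, 5.56 and 5.61 in the wild-type samples. Its difference was 0.06 (SE 0.07, 95% interval −0.09 to 0.21, limma adjusted p = 0.713), with overlapping groups. ST14, a protease of epithelial surfaces, read 4.31, 4.14, 4.15, 4.27 and 4.22 in the SOD1(G93A) samples, against 4.31, 4.22, 4.28, 4.22 and 4.13 in the wild-type samples. The groups spanned nearly the same range, and the difference was −0.01 (SE 0.06, 95% interval −0.14 to 0.11, limma adjusted p = 0.941).

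Of the inhibitors, SPINT1 had the largest difference among the 7 genes. It read 5.79, 5.49, 5.73, 5.68 and 5.63 in SOD1(G93A) samples 3, 9, 12, 15 and 18, against 5.79, 5.98, 5.84, 5.78 and 5.94 in wild-type SOD1 samples 2, 8, 11, 14 and 17. Only SOD1(G93A) sample 3 reached into the wild-type range. The difference was −0.20 (SE 0.07, 95% interval −0.36 to −0.05), which did not pass over all probe sets (limma, adjusted p = 0.126, and 0.0986 to 0.333 over the alternatives tried). SPINT2 averaged 4.97 ± 0.04 in SOD1(G93A) and 4.96 ± 0.15 in wild-type SOD1 arrays (SD, n = 5 each), a difference of 0.01 (SE 0.07, 95% interval −0.16 to 0.17, limma adjusted p = 0.977). The adaptor GAB1 averaged 7.67 ± 0.05 in SOD1(G93A) and 7.69 ± 0.07 in wild-type SOD1 arrays (SD, n = 5 each). Its difference was −0.02 (SE 0.05, 95% interval −0.14 to 0.10, limma adjusted p = 0.894), and its groups overlapped.

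**Figure D1:**
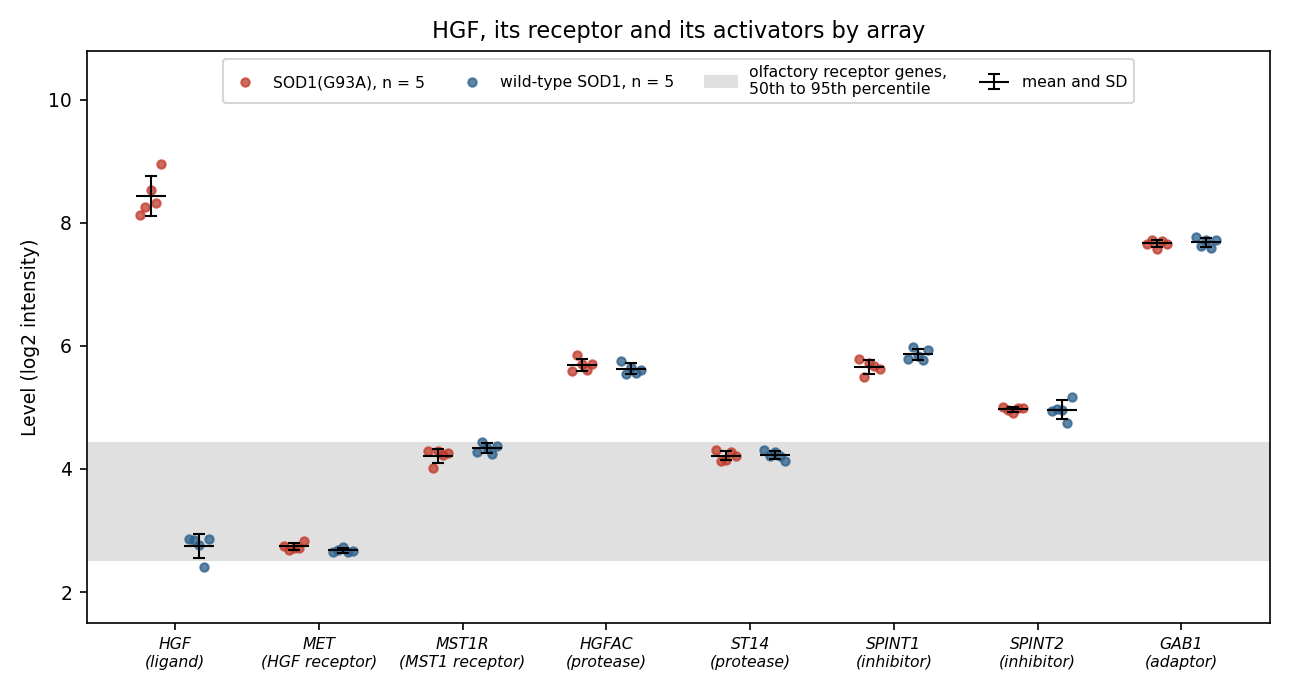
Log2 intensity of the 8 genes (vertical axis) in each array, with 5 SOD1(G93A) arrays (red) left of 5 wild-type SOD1 arrays (blue) for each gene, bars for mean and SD, and a grey band for the 50th to 95th percentile of olfactory receptor genes over the arrays. HGF stands between 8.14 and 8.96 in SOD1(G93A) and between 2.40 and 2.87 in wild-type SOD1 arrays, while MET lies in the band in all 10 arrays and the other 6 genes differ little between the groups.

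The table holds no detection calls, so 220 olfactory receptor genes, which a neuroblastoma line is not known to use, served as a stand-in for silent genes. Their median lay between 2.52 and 2.66 in the 10 arrays and their 95th percentile between 4.19 and 4.42. A gene was counted as above silent genes in an array when it exceeded that array's 95th percentile. Probes differ in brightness for the same RNA amount, so this is a rough guide and gives no order of abundance between genes. HGF was above this level in 5 of 5 SOD1(G93A) and 0 of 5 wild-type SOD1 arrays. MET was above it in 0 of 10 arrays. HGFAC, SPINT1, SPINT2 and GAB1 were above it in all 10 arrays. ST14 and MST1R sat at the level itself: ST14 was above it in 1 of 5 SOD1(G93A) and 0 of 5 wild-type arrays, and MST1R in 2 of 5 SOD1(G93A) and 3 of 5 wild-type arrays. The ligand, MET and at least 1 of the proteases HGFAC and ST14 were above silent genes together in 0 of 10 arrays. In the SOD1(G93A) arrays HGF and HGFAC stood above the level without MET, and in the wild-type arrays HGFAC alone of these did. The level is lenient: ST14, which sat at it, lay above only 27.5% to 29.2% of all probe sets. HGFAC lay above 41.4% to 45.1% of them. Against the 95th percentile of 34 keratin-associated protein genes, which lay between 6.32 and 6.74, HGFAC, SPINT1 and SPINT2 were not above silent genes either. Neither protease passed there, so the standing of HGFAC depends on the reference genes. The count of arrays with all 3 parts together was again 0.

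The 7 role lists described next held 96 measured genes, of which 6 rose and 13 fell, or 19.8% called against 9.6% of named genes. The lists were chosen with earlier results of these data known, and the 9.6% also covers silent genes. The shares here and below are thus a description. No other activating protease passed the test. Of 10 measured among 12 other proteases that cut pro-HGF or switch on its activators, 0 were called by limma and 0 had an unadjusted p under 0.05. The differences of these proteases reached at most 0.18 in size, in PLAT, which encodes tissue plasminogen activator. PLAT averaged 7.24 ± 0.07 in SOD1(G93A) and 7.42 ± 0.18 in wild-type SOD1 arrays (SD, n = 5 each; limma adjusted p = 0.297). The urokinase gene PLAU averaged 5.17 ± 0.09 in SOD1(G93A) and 5.12 ± 0.10 in wild-type SOD1 arrays (SD, n = 5 each). The hepsin gene HPN averaged 5.34 ± 0.10 in SOD1(G93A) and 5.36 ± 0.12 in wild-type SOD1 arrays (SD, n = 5 each). PLAT, PLAU, HPN, F12, KLK5, PRSS8 and F2 were above the olfactory receptor level in all 10 arrays, and KLKB1, TMPRSS2 and TMPRSS13 in 0. Against the keratin-associated genes, with a 95th percentile between 6.32 and 6.74, only PLAT stood clearly above. PLAU, HPN, KLK5, PRSS8 and F2 lay below that level in every array, and F12 lay near it, between 6.16 and 6.49. Among 3 measured other inhibitors 1 was called. SERPINE2, which encodes protease nexin-1, an inhibitor of thrombin and plasminogen activators, rose to between 5.71 and 6.10 in SOD1(G93A) arrays, against 4.18 to 4.38 in wild-type SOD1 arrays. It was above the olfactory receptor level in 5 of 5 SOD1(G93A) and 1 of 5 wild-type SOD1 arrays. The groups did not overlap, and the difference was 1.58 (SE 0.08, limma adjusted p = 8.86e-07).

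Partners of MET at the membrane changed in both directions, with 2 rises and 2 falls among 13 measured, or 30.8% called against 9.6% of named genes, and a median difference of −0.03, against −0.00433 over all named genes. NRP2, a neuropilin that binds semaphorins and growth factors, rose by 1.57 (SE 0.11, limma adjusted p = 4.51e-06). CD44, the hyaluronan receptor, of which some splice forms act with MET, averaged 4.58 ± 0.06 in SOD1(G93A) and 4.11 ± 0.13 in wild-type SOD1 arrays (SD, n = 5 each), a rise of 0.47 (SE 0.07, limma adjusted p = 0.0018). It was above silent genes in 5 of 5 SOD1(G93A) and 0 of 5 wild-type SOD1 arrays. SDC2, a syndecan whose heparan sulfate chains can hold HGF, fell to between 7.35 and 7.62 in SOD1(G93A) arrays, against 8.59 to 8.85 in wild-type SOD1 arrays. The SDC2 difference was −1.23 (SE 0.07, limma adjusted p = 1.48e-06), and that of the related SDC1 was −0.45 (SE 0.07, limma adjusted p = 0.0026). The groups did not overlap in any of these 4 genes, which were picked by their calls. Calls favour non-overlap, which 11.4% of all named genes showed.

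Of 21 measured intracellular adaptors and effectors, all above silent genes in all 10 arrays, 1 was called, or 4.76%, against 9.6% of named genes, with differences between −0.23 and 0.11. RAPGEF1, an exchange factor for the GTPase RAP1 that MET reaches through CRK proteins, fell by 0.21 (SE 0.05, limma adjusted p = 0.0327). The call was lost without SOD1(G93A) sample 3, 9, 15 or 18 or wild-type SOD1 sample 8, 11, 14 or 17 (limma, adjusted p up to 0.0802), while the difference stayed between −0.23 and −0.18. Leaving out samples 17 and 18 together also lost the call.

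Genes that switch MET signalling off showed 2 rises and 2 falls among 17 measured, or 23.5% called against 9.6% of named genes, and the median difference was 0.02. SPRY1, a Sprouty protein induced by and acting against receptor tyrosine kinase signalling, fell to between 5.85 and 6.20 in SOD1(G93A) arrays, against 7.74 to 7.91 in wild-type SOD1 arrays. The difference was −1.77 (SE 0.07, limma adjusted p = 1.17e-07). DUSP6, the ERK phosphatase, fell by 0.58 (SE 0.11, limma adjusted p = 0.0079). PTPRB, a receptor phosphatase reported to act on MET, rose to between 5.29 and 5.60 in SOD1(G93A) arrays, against 4.15 to 4.29 in wild-type SOD1 arrays, a difference of 1.27 (SE 0.07, limma adjusted p = 8.41e-07). PTPRB was above silent genes in 5 of 5 SOD1(G93A) and 0 of 5 wild-type SOD1 arrays. DCN, which encodes decorin, a matrix proteoglycan that binds MET and leads to its loss from the surface, rose by 1.34 (SE 0.10, limma adjusted p = 1.2e-05). The groups did not overlap in any of these 4, again picked by their calls, beside 11.4% of all named genes. The other measured Sprouty and SPRED genes, which also act against ERK signalling, were not called: their differences were −0.04 for SPRY2, 0.26 for SPRY4, 0.01 for SPRED1 and 0.14 for SPRED2 (limma, adjusted p from 0.0925 to 0.983).

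Among genes that rise in cultured cells after MET or ERK activation, most of those called were lower in the SOD1(G93A) line. Of 24 measured, 8 fell and 1 rose, or 37.5%, against 9.6% of all named genes. The median difference was −0.15, against −0.00433 over all named genes. On average 20 of the 24 were lower and 4 higher in SOD1(G93A), and the share of all named genes that were lower was not counted. Some of the 20 lay near 0, such as MMP9 (−0.01), PTGS2 (−0.02) and PHLDA1 (−0.02), none of them called. MMP1 and PTGS2 were above silent genes in no array, and MMP14 and SPP1 only in some. TFPI2, a Kunitz-type protease inhibitor, fell to between 10.98 and 11.38 in SOD1(G93A) arrays, against 11.85 to 12.32 in wild-type SOD1 arrays (difference −0.86, SE 0.11, limma adjusted p = 0.000592). The immediate early gene EGR1 averaged 6.27 ± 0.09 in SOD1(G93A) and 6.94 ± 0.24 in wild-type SOD1 arrays (SD, n = 5 each), a fall of 0.66 (SE 0.11, limma adjusted p = 0.0031). The transcription factors ETS1 and ETS2 fell by 0.49 (SE 0.08) and 0.38 (SE 0.06), and the gelatinase gene MMP2 by 0.38 (SE 0.08). Smaller falls were those of MYC (0.27), the ETS-family gene ETV4 (0.27) and CCND1, the cyclin D1 gene (0.23). SNAI1, a transcription factor of epithelial-mesenchymal transition, rose by 0.71 (SE 0.16, limma adjusted p = 0.0191). The groups did not overlap in any of these 9 genes. They were picked by their calls, which favour non-overlap, so the 11.4% of all named genes is not a like measure.

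Some of these calls lay near the threshold. The MYC call was lost without any 1 array other than SOD1(G93A) samples 3 and 18, and the ETV4 call without any 1 other than SOD1(G93A) sample 15 and wild-type SOD1 sample 2 (limma, adjusted p up to 0.086 and 0.103). Over those fits the MYC difference ran from −0.31 to −0.24 and that of ETV4 from −0.30 to −0.23. The ETV4 call was also lost with array quality weights. The SNAI1 call was lost without SOD1(G93A) sample 15 (limma, adjusted p = 0.0513), and those of MMP2 and CCND1 without samples 17 and 18 together (limma, adjusted p = 0.0785 and 0.0665). Without both of those samples the MYC and ETV4 calls were lost too. TFPI2, EGR1, ETS1 and ETS2 were called in each fit that left out 1 array or both of those samples.

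**Figure D2:**
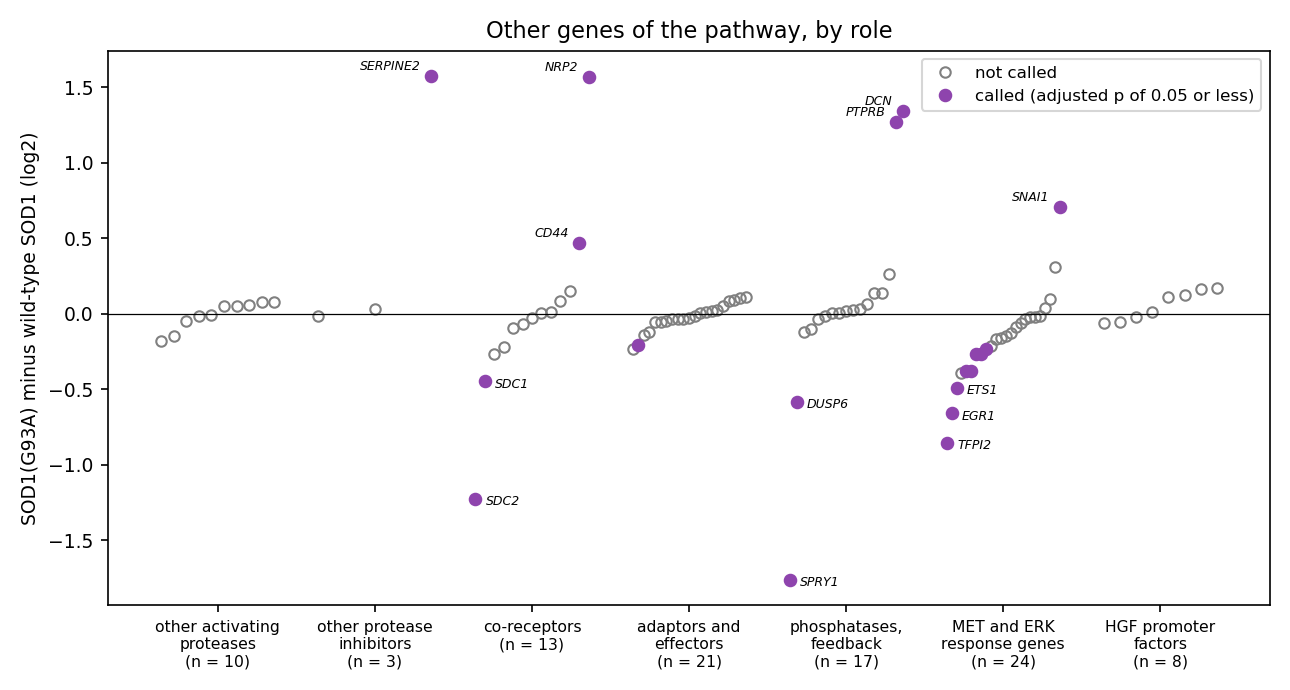
Difference in level, SOD1(G93A) minus wild-type SOD1 on the log2 scale (vertical axis), for every measured gene of 7 role lists (horizontal axis, with the number measured), each point 1 gene, filled where called and named where called and at least 0.4 in size. The 10 other activating proteases lie near 0 with 0 called, while 8 of the 9 called response genes lie below 0.

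**Figure D3:**
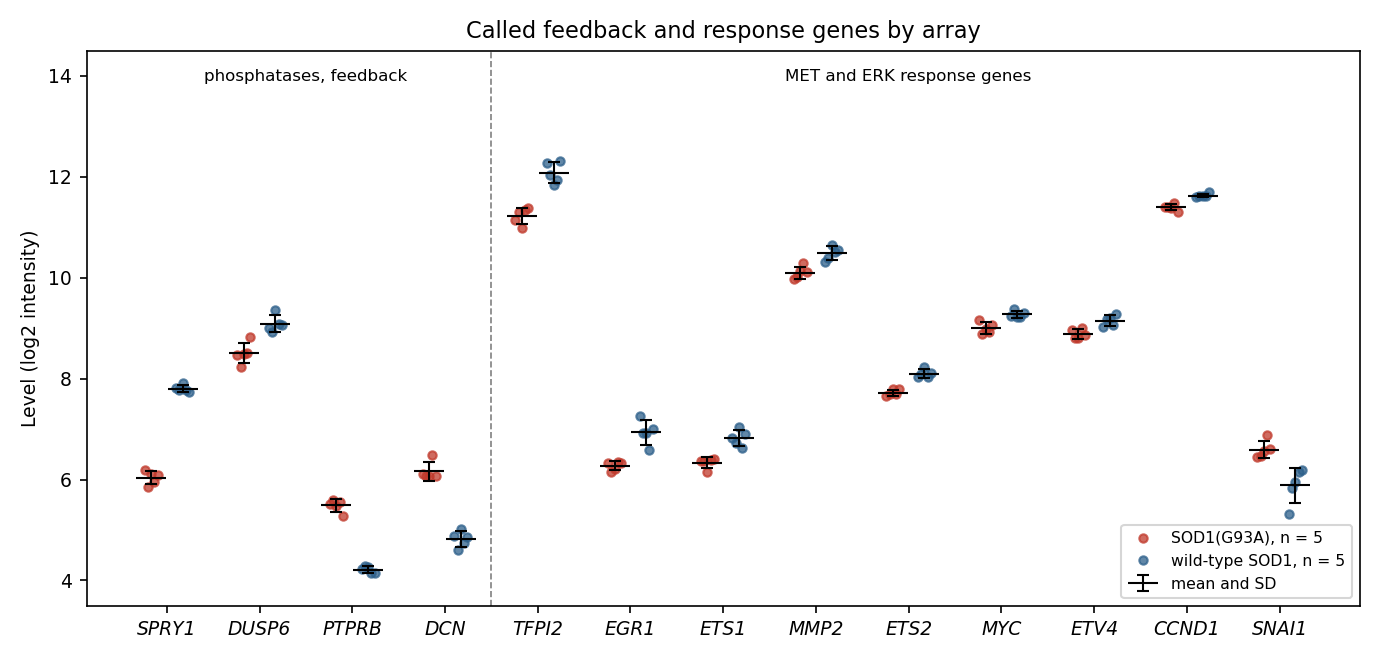
Log2 intensity (vertical axis) of the called feedback genes and response genes, 1 point per array, with 5 SOD1(G93A) arrays (red) left of 5 wild-type SOD1 arrays (blue) and bars for mean and SD. SPRY1 lies between 5.85 and 6.20 in SOD1(G93A) and between 7.74 and 7.91 in wild-type SOD1 arrays. The groups do not overlap in any gene shown, each picked by its call, which favours this.

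Transcription factors reported to act on the HGF promoter of mouse or human were also compared. None of 8 measured was called by limma, against 9.6% of named genes, and 1, CEBPB, had an unadjusted p under 0.05, against 21.7% of them (0.17, SE 0.07, limma adjusted p = 0.21). CEBPB averaged 6.80 ± 0.07 in SOD1(G93A) and 6.63 ± 0.12 in wild-type SOD1 arrays (SD, n = 5 each). The differences of the 8 factors ran from −0.06 to 0.17. PPARG and ESR1 were not above silent genes in any array, so their small differences say little.

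HGF lies on the long arm of chromosome 7, and genes next to it in the RefSeq gene order also differed. Among its 20 nearest measured genes with a probe set of their own, 10 on each side, 4 rose and 2 fell in the SOD1(G93A) line, against 4.03% and 5.57% of named genes. The 4 that rose, CACNA2D1, PCLO, SEMA3A and SEMA3D, are the 4 that follow HGF directly on 1 side. Several of them were known to be called from earlier results of these data, so this is a description of the stretch. SEMA3E lies within it and was skipped, since its probe set carries more than 1 symbol.

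CACNA2D1, a calcium channel subunit and the nearest of these genes, had levels of 9.06 to 9.61 in SOD1(G93A) arrays, against 8.33 to 8.86 in wild-type SOD1 arrays, a rise of 0.75 (SE 0.13, limma adjusted p = 0.0044). PCLO, which encodes the presynaptic scaffold protein piccolo, had 6.43 to 6.87 in SOD1(G93A) arrays, against 5.72 to 6.01 in wild-type SOD1 arrays, a rise of 0.74 (SE 0.09, limma adjusted p = 0.000339). SEMA3A, a secreted repellent of axons, had 8.98 to 9.35 in SOD1(G93A) arrays, against 7.14 to 7.74 in wild-type SOD1 arrays, a rise of 1.71 (SE 0.11, limma adjusted p = 3.22e-06). None of these 3 pairs of groups overlapped, which calls favour and which held for 11.4% of all named genes. SEMA3D, another secreted semaphorin, had 4.31 to 4.89 in SOD1(G93A) arrays, against 2.99 to 3.91 in wild-type SOD1 arrays, a rise of 1.14 (SE 0.17, limma adjusted p = 0.0018), again with no overlap. SEMA3D was above silent genes in 4 of 5 SOD1(G93A) and 0 of 5 wild-type SOD1 arrays.

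On the other side the nearest gene went the opposite way. SEMA3C had 8.32 to 8.78 in SOD1(G93A) arrays, against 9.15 to 9.49 in wild-type SOD1 arrays, a fall of 0.75 (SE 0.10, limma adjusted p = 0.000747). ABCB4, a phospholipid transporter gene at the far end of the stretch, fell by 0.52 (SE 0.09, limma adjusted p = 0.0055). The remaining 14 neighbours, YWHAG, FGL2, PTPN12, RSBN1L, TMEM60, PHTF2, RPL13AP17, GNAI1 and CD36 before SEMA3C, and GRM3, ELAPOR2, DMTF1, TP53TG1 and CROT after SEMA3D, had differences between −0.25 and 0.24 with limma adjusted p from 0.283 to 0.993. SOD1(G93A) sample 18 was the highest array of its group for HGF, for the 4 neighbours that rose and for 8 of the other 16 neighbours, ABCB4 among them. Without it the HGF, CACNA2D1, PCLO, SEMA3A and SEMA3D differences were 5.57, 0.67, 0.68, 1.65 and 1.07, and the 4 neighbours were still called (limma, adjusted p up to 0.0093). Around the other 7 genes of the HGF system, the 20 nearest measured genes held 1 call for MET, 2 each for MST1R and HGFAC, 1 for GAB1 and 0 for ST14, SPINT1 and SPINT2, beside the 9.6% of all named genes.

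**Figure D4:**
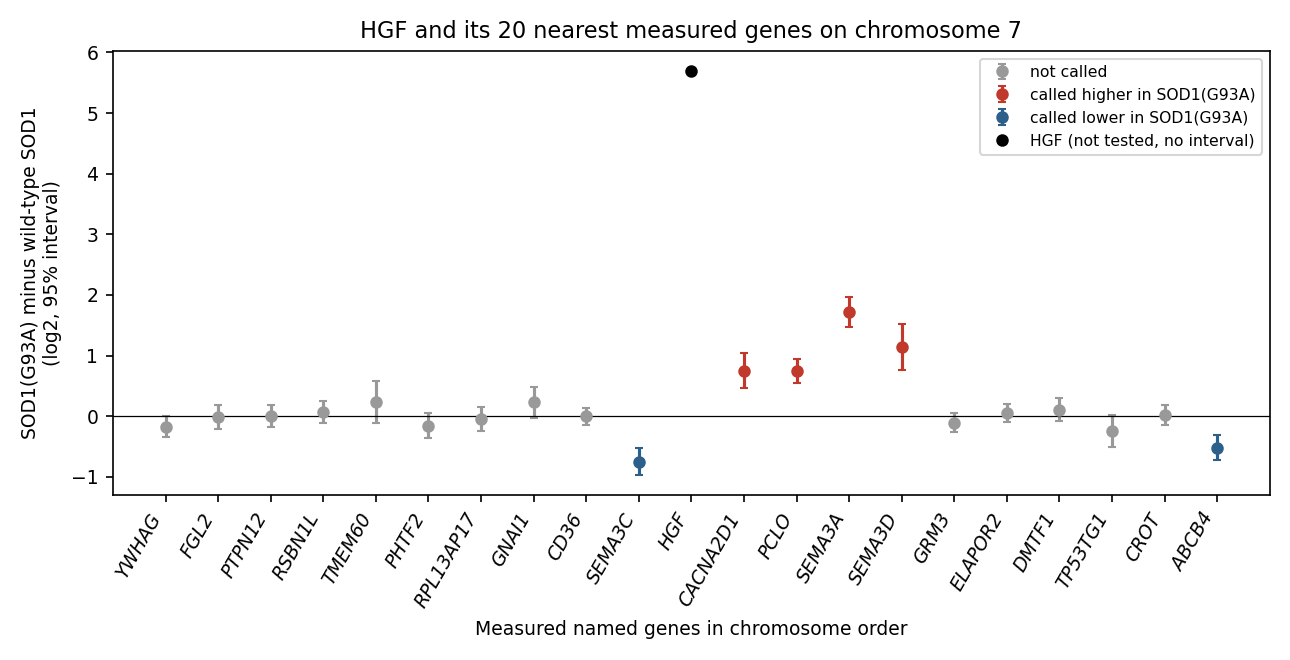
Difference in level, SOD1(G93A) minus wild-type SOD1 on the log2 scale (vertical axis, with a 95% interval for all but HGF), for HGF and the 10 nearest measured genes on each side, in chromosome order (horizontal axis). HGF is at 5.70, the 4 genes to its right are called higher by 0.74 to 1.71, and SEMA3C to its left is called lower by 0.75.

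The genes whose values over the 10 arrays were nearest to those of HGF, each gene centred on its own mean, were S100A10, BCHE, MAGEA10, MAB21L2 and MOXD1. Their root mean square distances from HGF were 0.80, 1.14, 1.18, 1.26 and 1.47 log2 units. With the HGF groups so far apart, this distance mainly follows the size of a gene's rise. The differences were 4.25, 3.51, 3.40, 3.24 and 2.78 in the same order, so nearness here restates a large rise in the same contrast. S100A10, an annexin partner, averaged 11.41 ± 0.21 in SOD1(G93A) and 7.17 ± 0.61 in wild-type SOD1 arrays (SD, n = 5 each). BCHE, the butyrylcholinesterase gene, averaged 6.22 ± 0.29 in SOD1(G93A) and 2.71 ± 0.27 in wild-type SOD1 arrays (SD, n = 5 each). Of the 5, BCHE and MOXD1 were, like HGF, above silent genes in 5 of 5 SOD1(G93A) and 0 of 5 wild-type SOD1 arrays. None of the 5 lies on chromosome 7.

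Markers of other cell types that could carry HGF or MET were read beside these values. Of 11 measured fibroblast and mesenchymal markers, 7 were above silent genes in all 10 arrays, and their mean log2 level was 6.03 to 6.08 in SOD1(G93A) and 6.02 to 6.16 in wild-type SOD1 arrays. FAP alone was called (a rise of 0.43, SE 0.06, limma adjusted p = 0.0018), or 9.09% of the list against 9.6% of named genes. Like POSTN, PRRX1 and COL6A3, FAP was not above silent genes in any of the 10 arrays. At an unadjusted p under 0.05 there were 6 of the 11, against 21.7% of named genes, with 2 higher (FAP and COL1A1) and 4 lower (COL1A2, PDGFRB, TWIST1 and FBLN1) in SOD1(G93A). COL1A1 averaged 6.53 ± 0.03 in SOD1(G93A) and 6.39 ± 0.08 in wild-type SOD1 arrays (SD, n = 5 each; limma adjusted p = 0.186). The differences of COL1A2, PDGFRB, TWIST1 and FBLN1 were −0.12, −0.15, −0.29 and −0.22 (limma, adjusted p from 0.103 to 0.265). Of 9 epithelial markers, 3 were above silent genes in all 10 arrays, and EPCAM, ESRP1, GRHL2 and ELF3 in 0. The epithelial mean was 4.62 to 4.74 in SOD1(G93A) and 4.77 to 4.87 in wild-type SOD1 arrays. ESRP1 alone was called, or 11.1% of that list, with a fall of 0.52 (SE 0.08, limma adjusted p = 0.0024). At an unadjusted limma p under 0.05 there were 3 of the 9, against 21.7% of named genes, all lower in SOD1(G93A). Beside ESRP1 these were KRT18 (−0.41) and EPCAM (−0.17), with limma adjusted p = 0.0868 and 0.254. KRT18 was above silent genes in all 10 arrays. Of 7 immune and endothelial markers, 0 were called and 0 had an unadjusted limma p under 0.05, against 9.6% and 21.7% of named genes. Their mean was 3.18 to 3.25 in SOD1(G93A) and 3.18 to 3.29 in wild-type SOD1 arrays. The neuroblastoma marker mean was 9.58 to 9.80 in SOD1(G93A) and 9.54 to 9.71 in wild-type SOD1 arrays. Of the 8 measured, CHGA and DDC were called higher and GATA2 and GATA3 lower, or 50% against 9.6% of named genes. The part of these marker differences in the HGF difference was not tested.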

How the data were processed

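RNA of 10 SH-SY5Y samples was hybridised by the authors to Affymetrix exon arrays after ribosomal RNA depletion, per the labels' protocols. The deposited table holds a log2 intensity for each of 22011 probe sets in every array, made by the authors with RMA, per the submitters' processing notes, in oneChannelGUI 1.6.5, per the labels. RMA makes array distributions alike, so a shift of all genes together is not visible. For the genome build and filters, the sources used here give nothing.

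The platform annotation gives 14432 of them a single gene symbol, 2408 more than 1 and 5171 none. Symbols were updated through RefSeq GCF_000001405.40 GRCh38.p14 (28 unmatched), and each gene was read from its probe set of highest average level, giving 14232 genes. Gene order came from the same table.

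Groups and sample numbers came from titles. Differences are SOD1(G93A) minus wild-type SOD1, fitted with limma 3.58.1 in R 4.3.3 (lmFit, eBayes, 2-sided) over all probe sets with no filter on level; the fit was tested on simulated data. The number of arrays limits the precision.

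The members and lists were chosen with earlier results of these data known. The text names the 8 members, called genes of the lists, the 20 HGF neighbours and the 5 genes nearest to HGF; marker and other genes named for their level were chosen after their values were seen. Alternatives were leaving out arrays, other variance models, a filter on level, recentring, other windows and other reference genes.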

Additional observations from a re-analysis of the deposited data

Results flagged for a closer look

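Within groups of 5 arrays, 9 of 104 checked gene and group pairs held 1 array whose gap to the nearest other exceeded 0.71 of the group's range, a limit that chance passes in about 1 of 20. Among the members these were HGF, at 2.40 in wild-type SOD1 sample 14 where the other wild-type arrays lay between 2.76 and 2.87, and MST1R, at 4.02 in SOD1(G93A) sample 9 with the others of its group between 4.22 and 4.29. Among SOD1(G93A) arrays, DCN was 6.50 in sample 15 (others 6.06 to 6.11) and PTPN12 was 8.34 in sample 18 (others 7.95 to 8.05). In the same group, sample 12 was lowest for ETS1 at 6.14 (others 6.36 to 6.41) and for BCHE at 5.71 (others 6.24 to 6.43). Among wild-type SOD1 arrays the outlying one was sample 17 for CCND1 at 11.69 (others 11.60 to 11.62), for NRP2 at 4.17 (others 4.50 to 4.61) and for MAGEA10 at 5.06 (others 4.70 to 4.79).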

How the results depend on the processing

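The HGF difference lay between 5.57 and 5.77 when 1 array was left out, was 5.60 without samples 17 and 18 together, and had no value among probe sets above the median level, since HGF's mean lay below it. Leaving out 1 array gave 1274 to 1562 called probe sets, 16 to 18 called pathway genes against 19, 6 called HGF neighbours and 0 called members other than HGF. Among probe sets above the median level, which kept 1 member and 13 of the 20 neighbours, 3 neighbours were called. Against keratin-associated genes, 2 members were above the level in all SOD1(G93A) arrays and 1 in all wild-type SOD1 arrays. Of 51 genes refitted under 16 alternatives, 8 turned direction, all of them uncalled and near 0. When 1 array was left out, ST14 ran from −0.0393 to 0.0058, SPINT2 from −0.0460 to 0.0619, CD36 from −0.0381 to 0.0234, CROT from −0.0133 to 0.0695, ELAPOR2 from −0.0012 to 0.0821, FGL2 from −0.0630 to 0.0373 and PTPN12 from −0.0651 to 0.0318. Without samples 17 and 18 together, FGL2 was 0.0055, PTPN12 −0.0358, RSBN1L −0.0169, CD36 0.0093, ELAPOR2 −0.0066 and CROT −0.0388. With array weights PTPN12 was −0.0111 and CD36 0.0051, and after recentring PTPN12 was −0.0032. The cause was not tested. Averaging several probe sets per member was not run, as each has 1. The groups share no sample number, but the numbers lie in adjacent pairs (2 and 3 up to 17 and 18), which the labels do not explain. In a fit chosen after seeing the data, with these pairs as a replicate block, 1213 probe sets, 15 pathway genes, 6 HGF neighbours and 0 members other than HGF were called, and MYC, ETV4, RAPGEF1 and CCND1 lost their calls (limma, adjusted p 0.0833 to 0.147). Deviations from the group means correlated at −0.03 to 0.14 within the 5 pairs, 1 of them over 0.1, and 1 of the 5 SOD1(G93A) arrays correlated best with its neighbour, so the numbers were not taken to pair the samples.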
